A study of Mus musculus with 36 samples.

Results

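The genes described here are 35 autosomal receptor genes for glutamate and GABA, among 20807 autosomal protein-coding genes. They were chosen by family name and not by a measured value, although earlier results of these data were known. They comprise 3 AMPA, 5 kainate, 7 NMDA and 1 delta receptor subunit genes, 7 metabotropic receptor genes (1 of group I, 2 of group II and 4 of group III) and GABA-A subunit genes of the alpha (4), beta (2), gamma (2), delta (1) and rho (3) classes. Other family members were not analysed here. The values are islands, that is, stretches in which chromatin immunoprecipitation followed by sequencing (ChIP-seq) gave more reads than the input DNA.

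The study compared control mice (Ctrl, Kdm2bfl/+ or Kdm2bfl/fl) with conditional knockout mice (cKO, Kdm2bEmx1-delta-CxxC), which lack the CxxC zinc finger of KDM2B, a domain that binds unmethylated CpG-rich DNA. Both genotypes carried the floxed allele, and the deletion was driven by Emx1-Cre, which acts in progenitors of the dorsal telencephalon and their progeny, so that cells of other origin in the tissue keep the domain. Each genotype was profiled in the hippocampus at postnatal day 0 and in neurospheres, floating progenitor cultures grown from hippocampi of the same age and passaged in culture before harvest. H2AK119ub1, H3K27me3 and H3K36me2 were measured with 2 libraries per mark, source and genotype, which gave 24 libraries with islands. The paper describes dividing the lysate of a sample among the antibodies, so the marks of a sample are not to be taken as independent. The labels list separate inputs for hippocampal H3K36me2, and whether that mark came from the same lysate is not stated. The labels also do not say whether replicates came from separate animals. If they did not, p-values measure only the spread between these libraries.

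AMPA, kainate and NMDA receptors are cation channels that carry fast excitation, metabotropic glutamate receptors act through G proteins, and GABA-A receptors are chloride channels built from subunits of several classes. PRC1 places H2AK119ub1 and PRC2 places H3K27me3, the marks of Polycomb repression, which in the nervous system cover many genes that are silent in a given cell. H3K36me2 is found mostly outside such domains, in gene bodies and between genes, and is a substrate of the demethylase KDM2B.

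The promoters of Grik3, Grm6, Gria2 and Gabra6 are printed because they span the range found among the receptor genes. Grik3, a kainate subunit gene, and Grm6, a group III metabotropic receptor gene, were among the 3 with the highest H3K27me3 coverage in the Ctrl libraries, whereas Gria2, an AMPA subunit gene, and Gabra6, an alpha subunit gene, had no H3K27me3 or H2AK119ub1 island at the promoter in any library. Each run is the 250 bases before the RefSeq start in GRCm38.p6, the assembly of mm10, read 5′ to 3′ along the gene, with CG dinucleotides in capitals. Grik3 lies on the plus strand at chr4:125490446-125490695, Grm6 on the plus strand at chr11:50850435-50850684, Gria2 on the minus strand at chr3:80802836-80803085 and Gabra6 on the minus strand at chr11:42321073-42321322.
Grik3: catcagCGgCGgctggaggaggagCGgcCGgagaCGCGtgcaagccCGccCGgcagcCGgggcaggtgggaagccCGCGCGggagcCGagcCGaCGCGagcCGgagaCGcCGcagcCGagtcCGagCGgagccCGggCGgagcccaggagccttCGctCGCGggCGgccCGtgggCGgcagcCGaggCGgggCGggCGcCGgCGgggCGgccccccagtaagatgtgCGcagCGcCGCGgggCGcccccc
Grm6: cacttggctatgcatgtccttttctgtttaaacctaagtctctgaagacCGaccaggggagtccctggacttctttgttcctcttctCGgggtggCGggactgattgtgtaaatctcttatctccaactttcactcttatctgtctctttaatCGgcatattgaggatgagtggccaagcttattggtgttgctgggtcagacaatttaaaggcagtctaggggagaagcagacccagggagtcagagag
Gria2: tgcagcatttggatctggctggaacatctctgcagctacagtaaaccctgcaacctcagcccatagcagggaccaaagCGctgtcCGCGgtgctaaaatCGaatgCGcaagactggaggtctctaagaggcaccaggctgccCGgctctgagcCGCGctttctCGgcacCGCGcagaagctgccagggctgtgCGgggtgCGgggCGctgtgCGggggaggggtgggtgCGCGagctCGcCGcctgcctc
Gabra6: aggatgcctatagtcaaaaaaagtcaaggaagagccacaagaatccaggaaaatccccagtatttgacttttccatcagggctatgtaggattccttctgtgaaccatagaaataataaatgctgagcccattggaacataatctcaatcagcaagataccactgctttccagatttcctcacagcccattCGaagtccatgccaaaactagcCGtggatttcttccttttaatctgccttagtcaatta

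Grik3 held 42 CG dinucleotides in this run and Gria2 held 19, whereas Grm6 held 4 and Gabra6 held 2. The 250 bases before the start held at least 1 CG in 92% of 25748 autosomal genes of the RefSeq table, with a median of 6 and quartiles of 2 and 16. These 4 promoters were not ordered by their CG content, since the CG-dense Gria2 had no island and the CG-sparse Grm6 was covered in all 8 H3K27me3 libraries. Of the 35 genes, 26 had a promoter in that table, with a median of 9 CG dinucleotides. By composition around the annotated start (in the surrounding 1 kb, a GC content above 50% and a CpG ratio, observed over expected, above 0.6), 17 receptor promoters were CpG-rich and 18 were CpG-poor. H3K27me3 islands were present in both hippocampal Ctrl libraries at 9 of the 17 CpG-rich and 4 of the 18 CpG-poor receptor promoters, beside 12.8% of 9501 CpG-rich and 9.52% of 11306 CpG-poor promoters of all genes.

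Libraries differed in how much they called. Islands covered 37.3 to 247 Mb in H2AK119ub1 libraries of the hippocampus and 126.6 to 327.2 Mb in those of neurospheres, 54.9 to 160 Mb and 267.8 to 321.2 Mb for H3K27me3, and 114.6 to 161 Mb and 349.4 to 497.5 Mb for H3K36me2. Both hippocampal H2AK119ub1 libraries numbered 1 held few reads in islands, 1015578 and 987329 against 4215938 and 6799122 in those numbered 2. The depth of reads outside islands is unknown, so a window without an island has no count rather than a count of 0. As a check of the labels, H3K27me3 covered the promoters of Hoxa9, Hoxb9, Hoxc9 and Hoxd9, posterior genes silent in the forebrain, in 8 of 8 libraries. Olig1 and Olig2, regulators of the oligodendrocyte lineage, had an H3K27me3 island in 4 of 4 hippocampal and 0 of 4 neurosphere libraries, whereas Emx1, a dorsal telencephalic regulator, had one in 1 of 4 hippocampal and 4 of 4 neurosphere libraries. For the neurospheres the Emx1 island goes against their label as hippocampal cultures. Islands are not a measure of expression and do not give the share of each cell type.

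The share of receptor genes with an island within 2 kb of the start is plotted by library beside that of all genes. For H3K27me3 it was 42.9% and 40% in the hippocampal Ctrl libraries, against 17.3% and 12.9% of all genes, and over the 8 libraries it ranged from 37.1% to 54.3%, above the share of all genes in each. For H2AK119ub1 the share was 11.4% and 37.1% in hippocampal Ctrl, 8.57% and 54.3% in hippocampal cKO, 48.6% and 34.3% in neurosphere Ctrl and 34.3% and 40% in neurosphere cKO, also above that of all genes in each library. H3K36me2 was absent from receptor promoters in both hippocampal Ctrl libraries and present at 1 gene, Gabrr2, in both hippocampal cKO libraries. In neurospheres 5 receptor promoters had an H3K36me2 island in each Ctrl library, 16 in cKO replicate 1 and 3 in cKO replicate 2. The cKO replicate 1 library had the largest covered length of all, 497.5 Mb, and an H3K36me2 island at 44.2% of all promoters.

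**Figure D1:**
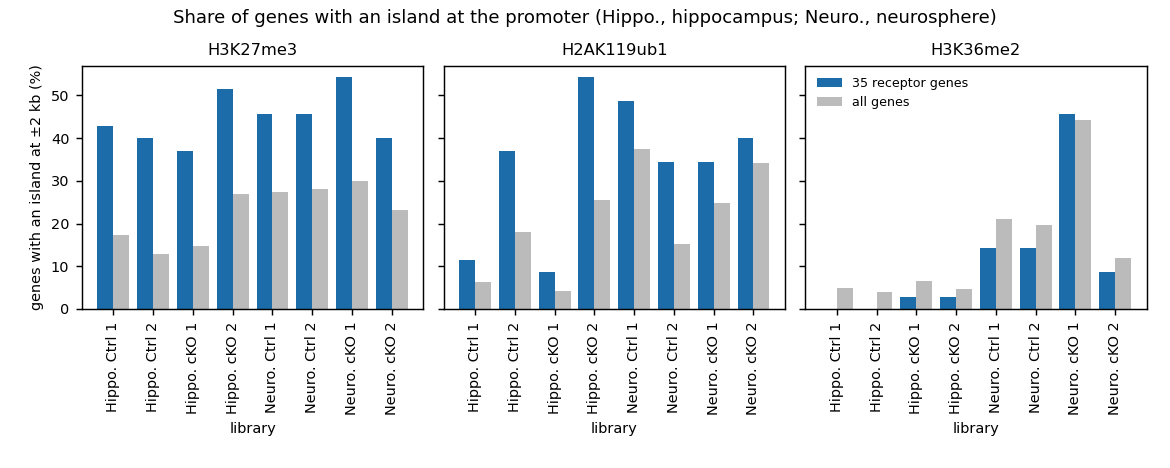
Percentage of genes with an island within 2 kb of the start, per library, for the 35 receptor genes (blue bars) and 20807 autosomal protein-coding genes (grey bars), in panels for H3K27me3, H2AK119ub1 and H3K36me2. For H3K27me3 the receptor genes lie at 37.1% to 54.3% and above all genes in each library, and for H3K36me2 they are at 0 in both hippocampal Ctrl libraries.

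H3K27me3 islands were present in all 8 libraries at 6 receptor promoters, Grin1, Grin2a, Grm6, Grm8, Gabra5 and Gabrd, whereas 6.05% of all genes had one in all 8. Grin1 encodes the obligatory NMDA subunit and Grin2a a glutamate-binding one, Grm6 and Grm8 encode group III metabotropic receptors, and Gabra5 and Gabrd encode GABA-A subunits found mainly in extrasynaptic receptors. By mean coverage of the 4 kb around the start in the 4 Ctrl libraries, Grik3, Grm4 and Grm6 led with 100%, followed by Grin2c with 99.5% and Gabra5 with 96.8%. The islands over them differed in size, and the mean width in Ctrl was 37.5 kb at Grik3, 23.1 kb at Grm4, 16.6 kb at Grm6, 30.6 kb at Grin2c and 5.5 kb at Gabra5. Gabra5 shares its window with the start of another gene, as do Grin2c, Grin3b, Grik5 and Grin2d, so islands there cannot be assigned to either gene.

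For H2AK119ub1, Grik3 (87.5%), Grin2c (75%) and Grm4 (66.2%) had the highest mean Ctrl coverage, and Grik3 was the single receptor gene with an island in all 8 libraries, beside 1.13% of all genes. At Grik3 the H2AK119ub1 coverage was 80% and 100% in hippocampal Ctrl, 12.5% and 100% in hippocampal cKO, 100% and 70% in neurosphere Ctrl and 100% in both neurosphere cKO libraries. The lowest value was in hippocampal cKO replicate 1, which held few reads in islands. Where H3K27me3 covered a receptor promoter, H2AK119ub1 was found at the same promoter in 26.7% and 78.6% of cases in hippocampal Ctrl, and in 75% and 56.2% in neurosphere Ctrl, and over all genes with H3K27me3 in 23.4%, 66.7%, 66.4% and 34.6%. In cKO it was 15.4% and 94.4% in the hippocampus and 52.6% and 57.1% in neurospheres, beside 17.2%, 60%, 49.8% and 57.8% over all genes. Grin2a and Gabra5 had H3K27me3 in 4 of 4 neurosphere libraries and H2AK119ub1 in 0 of 4. In the hippocampus both had H2AK119ub1 in the 2 libraries with more reads in islands.

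No H3K27me3 or H2AK119ub1 island lay at the promoter of 8 receptor genes in any of 16 libraries. They were Gria2 and Gria4, which encode AMPA subunits, Grik2, a kainate subunit, and Gabra2, Gabra6, Gabrg1, Gabrr1 and Gabrr3, GABA-A subunits. This is 8 of 35, beside 34.5% of all genes. Gria2, Grik2 and Gabra2 are CpG-rich by the rule above, and the other five are CpG-poor. Within the classes, the mean H3K27me3 promoter coverage of the 3 AMPA genes was 0% in 7 of 8 libraries, and the exception was 28.2% in neurosphere cKO replicate 2, from Gria1 alone at 84.7%. The 4 group III metabotropic genes, presynaptic receptors apart from Grm6, ranged from 41.3% to 92.4% and the 7 NMDA genes from 23.8% to 69.9%. The 3 rho genes were at 0% in all 8. The map of promoter coverage shows the AMPA and rho genes, with Gabra2, Gabra6 and Gabrg1, as rows with few or no islands.

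**Figure D2:**
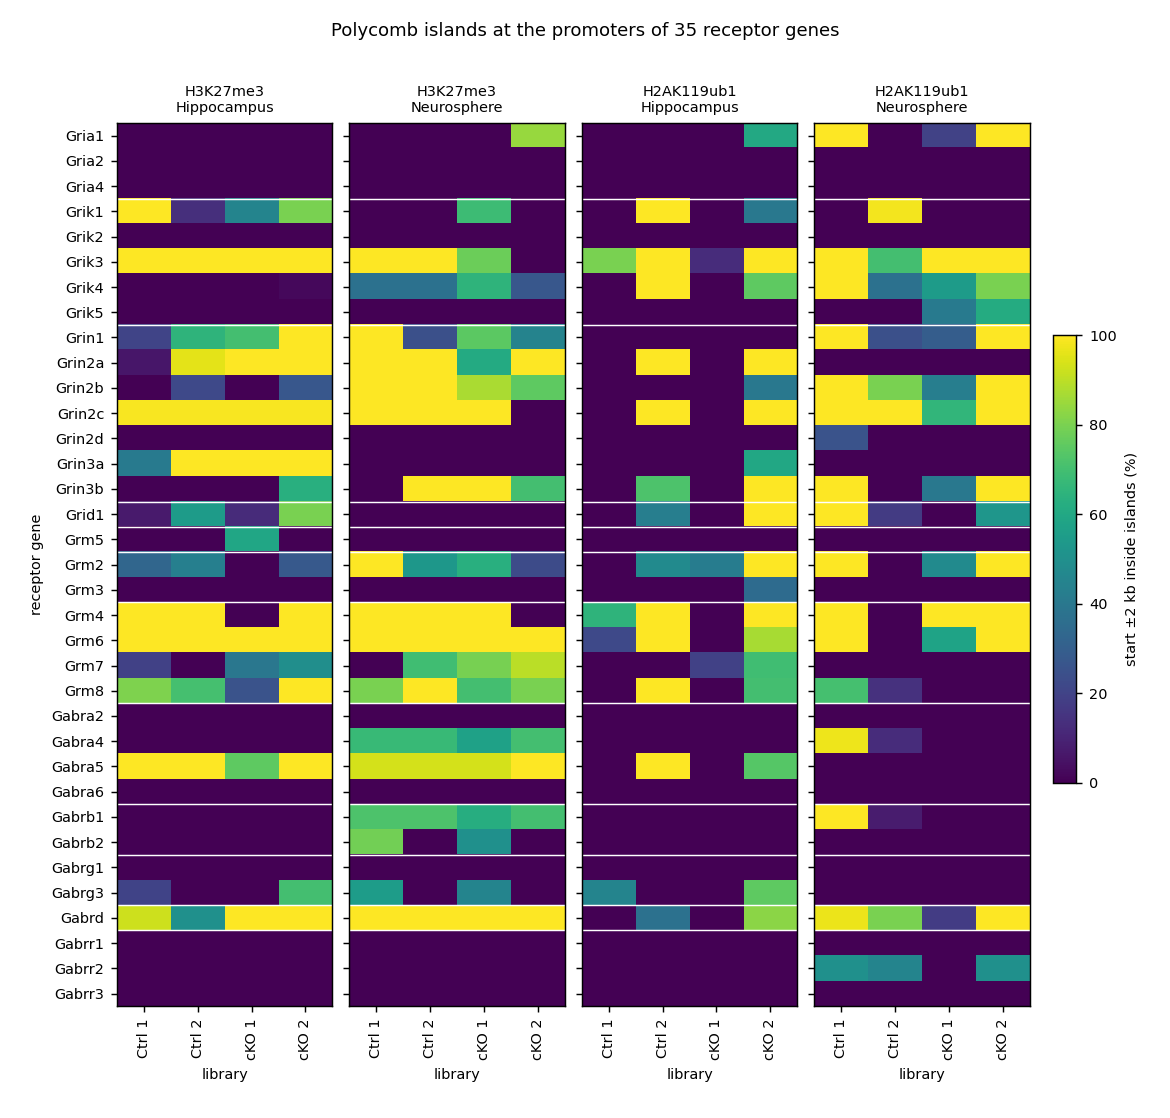
Coverage of the promoter (2 kb on each side of the start, colour, 0 to 100%) by H3K27me3 and H2AK119ub1 islands, for 35 receptor genes in rows ordered by class (white lines) and 16 libraries in columns. Grik3, Grm6 and Gabrd have an island in more of the libraries than the other genes do, and Gria2, Gria4, Grik2, Gabra2, Gabra6, Gabrg1, Gabrr1 and Gabrr3 in no library.

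Hippocampus and neurospheres were compared over 4 libraries each, both genotypes together, which asks where tissue and cultured progenitors differ. Receptor genes without overlap between the sources in H3K27me3 promoter coverage were Grik4, Grin2b, Gabra4 and Gabrb1, higher in neurospheres (4 of 35, with 6.13% of all genes), and Grin3a and Grid1, lower in neurospheres (2 of 35, with 1.32% of all genes). For each of these the exact two-sided permutation test over 4 against 4 libraries gave p = 0.0286, the smallest it can give, and after Benjamini-Hochberg adjustment over 20807 genes the smallest value was 0.384, so none passed.

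Grin2b, the NMDA subunit gene that predominates before birth, had H3K27me3 over 0% and 22.2% of the window in hippocampal Ctrl, 0% and 27.2% in hippocampal cKO, 100% in both neurosphere Ctrl and 87.2% and 75% in neurosphere cKO. Every neurosphere library was above every hippocampal one, and the means were 90.6% ± 12 and 12.4% ± 14.4 (SD, n = 4). H2AK119ub1 differed the same way at Grin2b, with 80.7% ± 27 in neurospheres and 10% ± 20 in the hippocampus (SD, n = 4). Gabra4 and Gabrb1, an alpha and a beta subunit gene, are transcribed away from each other on chromosome 5 from starts at 71658308 and 71658113 (mm10), share most of their windows and count as a single site. H3K27me3 covered the Gabrb1 window by 0% in 4 of 4 hippocampal libraries and by 72.2%, 72.2%, 62.2% and 70% in the neurosphere Ctrl and cKO libraries. The island there was narrow, 3.2 to 4.6 kb.

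Grin3a, an NMDA subunit gene associated with juvenile receptors, was the reverse. Its H3K27me3 coverage was 41.4% and 100% in hippocampal Ctrl, 100% in both hippocampal cKO and 0% in 4 of 4 neurosphere libraries. Grid1, the delta subunit gene, had 7.33%, 55%, 12.3% and 80% in the hippocampus and 0% in 4 of 4 neurosphere libraries. Grik4, a kainate subunit gene, had 37.3%, 37.3%, 65% and 27.3% in neurospheres and at most 2.3% in the hippocampus. For H2AK119ub1, Grin1 and Grin2b were higher in neurospheres without overlap (2 of 35, with 1.82% of all genes), and no receptor gene was lower (0.0529% of all genes). The smallest adjusted value over all genes was 1. Grin1 had no H2AK119ub1 island in 4 hippocampal libraries and 63.6% ± 42.1 (SD, n = 4) in neurospheres.

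These differences depended on the covered length, which was larger in neurospheres. With the H3K27me3 libraries trimmed to an equal covered length, Grin2b stayed higher and Grid1 lower in neurospheres without overlap, Grik4, Gabra4, Gabrb1 and Grin3a no longer did so, and Grik3, Grin1 and Grin2a were lower. The mean difference over the 35 genes was 6.66 percentage points as called, beside 6.58 over all genes, and -9.32 at equal covered length. In H2AK119ub1 at equal covered length neither Grin1 nor Grin2b was without overlap.

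Over gene bodies, the H3K27me3 domains of some covered genes differed in extent between the sources. The Grm6 body was covered by 24.3% ± 6.85 in the hippocampus and 100% ± 0.0258 in neurospheres (SD, n = 4), although its promoter was fully covered in 8 of 8 libraries. Gabrd had 63.4% ± 26.5 and 100% ± 0, Grin2b 4.31% ± 2.06 and 26.4% ± 8.82. Grik3 was the reverse, with 69.2% ± 15.3 in the hippocampus and 23.6% ± 19.1 in neurospheres. In all, the sources did not overlap in H3K27me3 gene body coverage at 6 receptor genes that were higher in neurospheres (Gria1, Grin2b, Grm6, Gabra4, Gabrd and Gabrr3, with 11.3% of all genes) and 4 that were lower (Grik1, Grik3, Grin3a and Grid1, with 1.70%). Equal covered length was not applied to H3K27me3 gene bodies, so whether these differences depend on the larger covered length of neurospheres was not tested. Adjusted p-values were not computed for them.

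**Figure D3:**
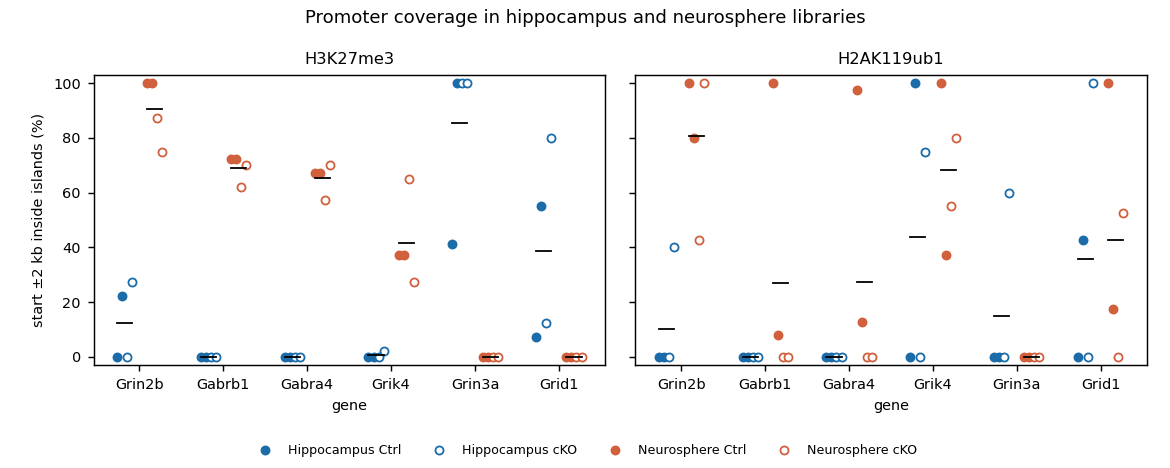
Coverage of the promoter by H3K27me3 (left) and H2AK119ub1 (right) islands, in percent, at the 6 receptor genes whose H3K27me3 values did not overlap between sources. Each point is a library (blue, hippocampus; orange, neurosphere; filled, Ctrl; open, cKO) and each black line the mean of 4. Grin2b, Gabrb1, Gabra4 and Grik4 are higher in neurospheres and Grin3a and Grid1 in the hippocampus for H3K27me3.

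Of the 25 other genes of glutamate and GABA signalling (transporters, enzymes, GABA-B receptors, scaffolds and auxiliary subunits), H3K27me3 was higher in neurospheres without overlap at Slc17a6, which encodes a vesicular glutamate transporter, and Cacng2, an AMPA receptor auxiliary subunit, and lower at Neto1, an auxiliary subunit of kainate receptors. Slc32a1, the vesicular GABA transporter gene, and Gad2, which encodes a GABA-synthesising enzyme, had an H3K27me3 island in 4 of 4 libraries of each source. Slc1a2 and Slc1a3, glutamate transporter genes of astrocytes, and Gphn, the scaffold of inhibitory synapses, had one in none.

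The genotypes were compared within each source, which asks whether loss of the CxxC domain changed the marks. With 2 libraries against 2, the exact two-sided permutation test of the coverage of a gene cannot give a p below 0.333, so coverage differences are given by whether the genotypes overlapped. In neurospheres, H3K27me3 coverage was lower in cKO without overlap at Grik3, Grin2b and Gabrb1 (3 of 35, with 5.10% of all genes) and higher at Grm7 (1 of 35, with 3.61%). In the hippocampus it was lower at Grm2 (1 of 35, with 0.827%) and higher at Grin1, Grin2a, Grm7 and Gabrd (4 of 35, with 3.82%). Of those hippocampal libraries, Ctrl replicate 2 held 1681001 reads in islands, against 5117758 in Ctrl replicate 1 and 5288967 and 5525016 in cKO. In neurospheres, H2AK119ub1 coverage was lower at Grm8, Gabra4 and Gabrb1 (3 of 35, with 3.50%) and higher at Grik5 (1 of 35, with 2.24%). Gabra4 and Gabrb1 shared the same island there, with 227 and 41 reads in Ctrl replicates 1 and 2. In the hippocampus no receptor gene was lower (0.505%) and Grm7 was higher (1 of 35, with 0.610%). Among the 25 other genes of the pathway, H3K27me3 was lower in neurosphere cKO at 3 (Gad2, Abat and Cacng2) and higher at 0, and in hippocampal cKO lower at 1 and higher at 3.

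Grm7, a group III metabotropic receptor gene, was the single receptor gene whose promoter coverage by a Polycomb mark differed in the same direction in both sources. Over gene bodies Grik4 and Grid1 had more H3K27me3 in cKO without overlap in both sources. At Grik4 it was 5.58% and 1.74% in hippocampal Ctrl against 10% and 13% in hippocampal cKO. At Grid1 it was 0.97% and 1.41% against 3.93% and 9.83% in the hippocampus. In neurospheres Grid1 was near 0, at 0% and 0.157% in Ctrl against 0.288% and 0.603% in cKO. The share of all genes with such agreement between sources was not counted, for promoters or for gene bodies. The Grm7 promoter's H3K27me3 coverage was 19.5% and 0% in hippocampal Ctrl and 39.5% and 49.5% in hippocampal cKO, and 0% and 69.5% in neurosphere Ctrl and 79.5% and 89.5% in neurosphere cKO. Both cKO libraries were above both Ctrl libraries each time, and in neurospheres the Ctrl libraries differed from each other by more than Ctrl replicate 2 did from cKO. Its H2AK119ub1 coverage was 0% in both hippocampal Ctrl and 19.5% and 69.5% in hippocampal cKO, and 0% in 4 of 4 neurosphere libraries. Reads per kb in the Grm7 H3K27me3 island were 31.5 in hippocampal Ctrl replicate 1 and 44.1 and 38.2 in the hippocampal cKO libraries, but 62.4 in neurosphere Ctrl replicate 2 and 37.3 and 36.5 in the neurosphere cKO libraries. Over all islands of those neurosphere libraries they were 52.3 in Ctrl replicate 2, 43.2 in cKO replicate 1 and 42 in cKO replicate 2.

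The H3K27me3 coverage of Grik3 differed between the neurosphere cKO libraries, with 100% in both Ctrl, 77.5% in cKO replicate 1 and 0% in cKO replicate 2. The same cKO replicate 2 library also had no H3K27me3 island in the promoter windows of Grin2c and Grm4, where the other neurosphere libraries had 100%, although 23.2% and 30.5% of their gene bodies were covered. Its islands covered the most bases of the 4 (321.2 Mb). H2AK119ub1 still covered Grik3, Grin2c and Grm4 by 100% in the neurosphere cKO replicate 2 library.

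For 7 receptor genes (Grik2, Grik4, Grin2a, Grin2d, Grm5, Grm4 and Gabrb1) the principal transcript starts over 2 kb from the annotated gene start, and with that start the neurosphere H3K27me3 count without overlap went from 4 to 9, with Grin2a, Grin2d, Grm4 and Grm8 now also lower, Grik4 and Gabrb1 higher, and Grik3, Grin2b and Grm7 as before. Of all genes 4.99% were lower and 3.41% higher with that start. At the principal start of Grin2d, an NMDA subunit gene, on chromosome 7 at 45867129, coverage was 100% and 68.2% in neurosphere Ctrl and 28.2% and 0% in neurosphere cKO. At that of Grin2a, on chromosome 16 at 9992533, it was 81.7% and 93.3% in hippocampal Ctrl and 100% in both hippocampal cKO, but 100% in both neurosphere Ctrl and 98.3% and 63.3% in neurosphere cKO. At that of Gabrb1, 41.8 kb inside the gene, it was 0% in both neurosphere Ctrl and 81.7% in both cKO, the opposite of the shared start with Gabra4.

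Counts were then compared over regions, the islands of 4 libraries merged where they overlapped, in which each library had an island. Of 11262 such regions for H3K27me3 in neurospheres, the quasi-likelihood test of edgeR called none at an FDR of 0.05 (0.00%). Without adjustment 2077 regions (18.4%) had a p under 0.05, and DESeq2 called 738 at the same FDR. Of 12 regions at receptor promoters, which held 13 genes, 10 were lower and 2 higher in cKO, and 5 were at an unadjusted p under 0.05, all lower. The median log2 fold change was -0.54 over these 12 regions, 0.01 over all regions and -0.36 over the 1880 regions at CpG-rich promoters, of which 73.8% were lower.

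The region at the Grin2b promoter (chr6:136145601-136182400, mm10) held 3812 and 2858 reads in neurosphere Ctrl and 1606 and 1578 in cKO. Both cKO libraries were below both Ctrl libraries. Islands summed over the region spanned much the same length, at 36.6 and 34.6 kb for the Ctrl libraries against 31.6 and 34 kb for the cKO libraries, while the island at the promoter itself was narrower in cKO, at 36.6 and 30.8 kb against 25.2 and 21.8 kb. The log2 fold change was -1.05 ± 0.18 (SE), with an adjusted p of 0.175 by edgeR and of 0.0157 by DESeq2, and this was the single receptor region that DESeq2 called. The Grik3 region (chr4:125443401-125505400) held 3693 and 3037 reads in Ctrl and 2098 and 1430 in cKO, a log2 fold change of -0.92 ± 0.27 with an edgeR adjusted p of 0.219. At Grm6 the log2 fold change was -0.59 ± 0.19 and at Gabrd -0.53 ± 0.18, with edgeR adjusted p of 0.232 and 0.243. Islands summed over these regions were of like length, at 25.6 to 29 kb for Grm6 and 58.6 to 67.2 kb for Gabrd, and reads per kb were lower in both cKO libraries than in both Ctrl libraries. Reads per kb over all islands of these libraries had the same order, at 60.2 and 52.3 in Ctrl and 43.2 and 42 in cKO. At Grin2a the log2 fold change was -0.94 ± 0.33, with an edgeR adjusted p of 0.247.

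Leaving out cKO replicate 1 raised the edgeR calls to 8 of the 12 receptor regions, all lower, and to 2409 of all regions (21.4%), and leaving out Ctrl replicate 1, Ctrl replicate 2 or cKO replicate 2 gave none at receptor promoters. Grin2c turned on cKO replicate 2, which held 165 reads in a 4.2 kb island against 2056 in the other cKO library and 3759 and 3458 in Ctrl. Gabra5 and Grik4, at log2 fold changes of 0.09 ± 0.30 and 0.17 ± 0.31, were the 2 regions that were higher in cKO.

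**Figure D4:**
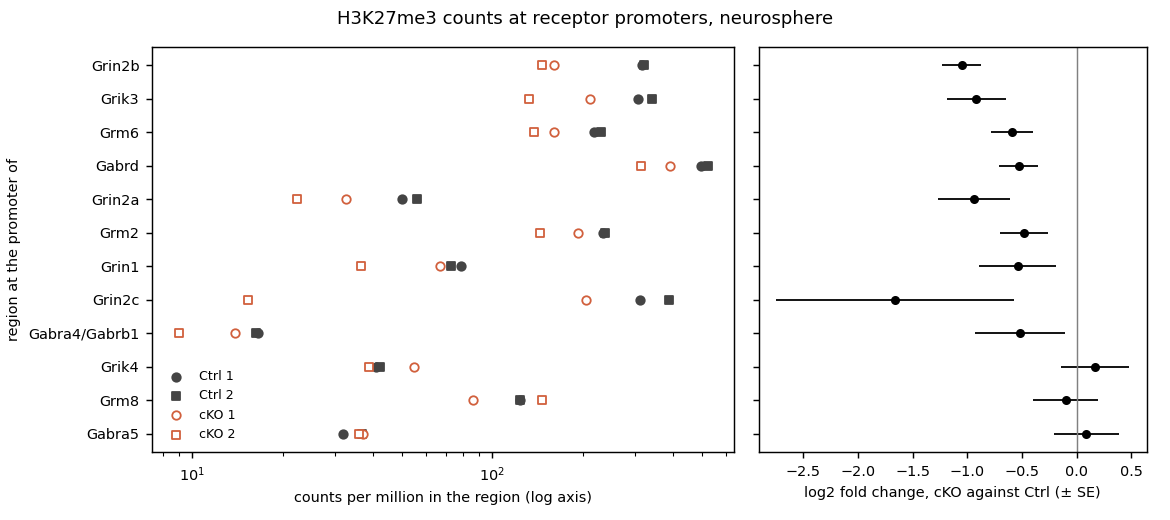
Neurosphere H3K27me3 regions at receptor promoters called in all 4 libraries. Left, normalised counts (CPM) in each library (log axis; filled, Ctrl; open, cKO; circles, replicate 1; squares, replicate 2); right, log2 fold change of cKO against Ctrl with its SE from edgeR. The value is below 0 at 10 of 12 regions, with Grin2b at -1.05 and Grin2c, which has the widest error, at -1.66.

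No region passed an edgeR FDR of 0.05 in the other comparisons either. There were 2750 hippocampal and 6060 neurosphere H2AK119ub1 regions (0.00% each), 4387 hippocampal H3K27me3 regions (0.00%), and 6447 hippocampal and 34454 neurosphere H3K36me2 regions (0.00% each). Without adjustment a p under 0.05 was found for 30, 101, 155, 318 and 736 in the same order, and DESeq2 called 0, 32, 3, 20 and 83, with no receptor region among them. The receptor regions with the smallest p were Grm4 for hippocampal H2AK119ub1, Grik3 for neurosphere H2AK119ub1, Gabrd for hippocampal H3K27me3 and Gabrr2 for neurosphere H3K36me2, with edgeR adjusted p of 0.999, 1, 0.994 and 0.962. At Grik3 the neurosphere H2AK119ub1 region held 3314 and 1068 reads in Ctrl and 2154 and 3410 in cKO, a log2 fold change of 0.91 ± 0.45, opposite in sign to that of H3K27me3 there. The 12 hippocampal H3K27me3 regions at receptor promoters split into 6 lower and 6 higher, with a median log2 fold change of -0.01. At Grin1 and Grin2a, where promoter coverage was higher in cKO, the log2 fold changes were -0.03 ± 0.39 and 0.25 ± 0.53. For Gabrd, a log2 fold change of 0.39 ± 0.40 in the hippocampus stood beside -0.53 ± 0.18 in neurospheres, and whether the sources differed was not tested. Leaving out Ctrl replicate 1 from the neurosphere H2AK119ub1 libraries gave 4 receptor regions past the FDR (Grm4, Grin1, Grik3 and Grik4) among 671 of all (11.1%), each higher in cKO.

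H3K36me2 was examined over gene bodies. The receptor genes are long: 20 of 35 span at least 100 kb, beside 11.4% of all genes. Grik4 (42.9%), Gabrr2 (31.2%) and Grid1 (26.3%) had the highest mean coverage over the 4 Ctrl libraries. In the hippocampus coverage was low, at most 13.3% of any receptor gene body in Ctrl. Grik4 had 8.82% and 6.85% in the hippocampal Ctrl libraries and 75.5% and 80.4% in the neurosphere Ctrl libraries.

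In the hippocampus H3K36me2 gene body coverage was lower in cKO without overlap at 10 receptor genes, Grik1, Grik2, Grin2a, Grid1, Grm5, Grm4, Grm7, Grm8, Gabrb1 and Gabrg3 (with 2.41% of all genes), and higher at Grik4, Grin2b and Gabrr2 (with 5.93%). Among genes of at least 100 kb, 9 of 20 receptor genes were lower and 2 were higher, whereas 8.77% and 19.4% of all 2372 genes of that length were. The differences were small in size. At Grid1 the Ctrl libraries had 13.3% and 9.22% and the cKO libraries 6.73% and 5.03%. At Grin2a the Ctrl libraries had 5.47% and 4.44% and the cKO libraries 3.65% and 2.15%. At Gabrb1 it was 5.34% in both Ctrl and 4.20% and 4.48% in cKO. At equal covered length 4 receptor genes stayed lower (Grik1, Grid1, Grm4 and Grm7, with 3.24% of all genes), and with islands of at least 2 kb 4 did (Grin2a, Grid1, Grm8 and Gabrg3), so that Grid1 alone was lower under each. Of the 25 other pathway genes 0 were lower and 2 higher.

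In neurospheres the split was the other way, with 3 receptor genes lower in cKO (Gria1, Grin2a and Gabra4, with 4.51% of all genes) and 7 higher (Gria2, Gria4, Grik3, Grin1, Grin2b, Grin3a and Gabrg1, with 4.83%). Among genes of at least 100 kb, 2 of 20 were lower and 5 higher, beside 9.82% and 12.4% of all genes of that length. Grin2a was lower and Grin2b higher in both sources. Grin2a, whose product replaces that of Grin2b in many receptors as neurons mature, had 4.49% and 10.3% in neurosphere Ctrl and 1.31% and 0% in cKO. Grin2b had 1.65% and 2.39% in hippocampal Ctrl and 3.78% and 5.13% in cKO, and 5.95% and 9.12% in neurosphere Ctrl and 28.3% and 12.8% in cKO. At equal covered length neither Grin2a nor Grin2b was without overlap in the hippocampus, and both were in neurospheres. Gria1, an AMPA subunit gene, had 18.1% and 26.5% in neurosphere Ctrl and 4.33% and 2.89% in cKO, with H3K36me2 over 100% and 75% of its promoter in Ctrl and 45% and 0% in cKO. The second value of each cKO pair in neurospheres is from a poorer library, cKO replicate 2. It held 10587042 reads in islands, against 19827572 to 22021439 in the others, and had an island at 11.9% of all promoters.

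Between sources, H3K36me2 gene body coverage was higher in neurospheres without overlap at 7 receptor genes, Gria4, Grik3, Grik4, Grin2b, Grin3a, Grid1 and Grm5, when 17.5% of all genes and 59.8% of genes of at least 100 kb were. It was lower at Gabrb1 and Gabrb2, beta subunit genes (with 0.567% of all genes and 3.84% of long ones). Of the 20 long receptor genes 7 were higher, a smaller share than that of long genes in general. Gabrb2 had 2.01%, 1.91%, 1.53% and 2.01% in the hippocampus and 0% in 4 of 4 neurosphere libraries. The exact two-sided permutation p was 0.0286 for each of these 9 genes, the smallest possible, and the smallest adjusted value over all genes was 0.158. The mean difference over the receptor genes was 10.3 percentage points as called, beside 13.7 over all genes, and 2.36 at equal covered length, where the genes without overlap were Gria1, Grin2a, Grm7 and Gabrb1, lower, and Grin3a, higher.

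**Figure D5:**
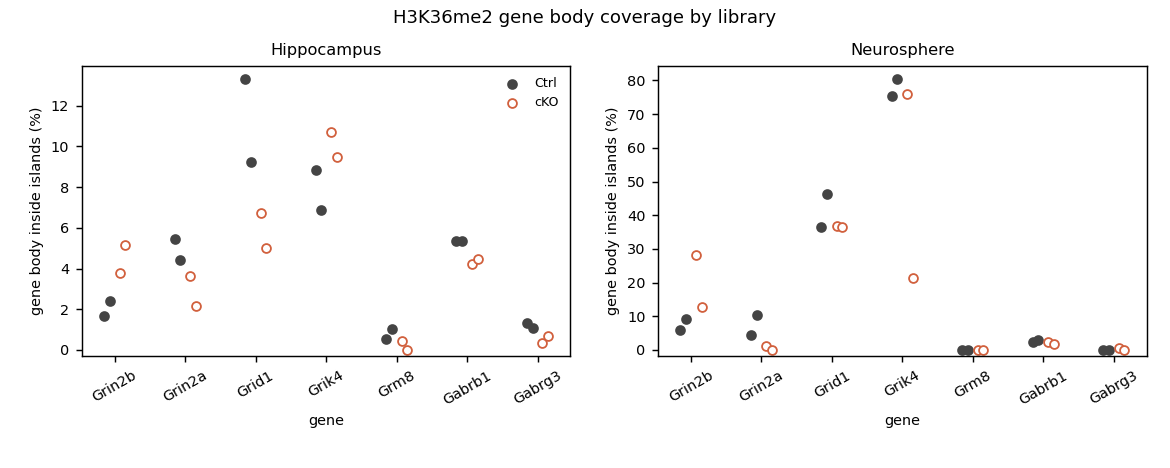
H3K36me2 coverage of the gene body in percent, at 7 receptor genes, in the hippocampus (left) and neurospheres (right; the axes differ in scale). Each point is a library (filled, Ctrl; open, cKO). In the hippocampus both cKO points lie below both Ctrl points at Grin2a, Grid1, Grm8, Gabrb1 and Gabrg3 and above them at Grin2b and Grik4, and in neurospheres Grin2b is again higher and Grin2a lower in cKO.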

How the data were processed

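ChIP-seq of 3 histone marks was analysed from 24 libraries, and the 12 input samples had no file of their own here. The authors trimmed reads with cutadapt, aligned them to mm10 with Bowtie2 2.4.5, removed duplicates with samtools and called islands per library with SICER against input (window 200 bp, gap 600 bp, fragment 150 bp, FDR 0.01). The SICER version is not given in the sources used here. The deposited values are counts of reads per island, not normalised, and positions outside islands hold none. Ends in the files name the last base, and coordinates are given from 1.

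Genes were those of GENCODE vM21 (GRCm38, which is mm10). Coverage was the percentage of the promoter (2 kb on each side of the start) or gene body inside islands. Groups came from the sample labels. Genotypes without overlap were those in which both cKO libraries lay above or below both Ctrl libraries. Sources were compared by an exact two-sided permutation test over 4 against 4 libraries. Counts were summed over merged regions with an island in all 4 libraries, so that a fold change combines called length and reads per kb, and were tested with edgeR 4.0.16 (quasi-likelihood, TMM, Benjamini-Hochberg, R 4.3.3). DESeq2 1.42.0 was an alternative. Requiring an island in all 4 libraries leaves out complete losses. The other alternatives were a window of 1 kb, the principal transcript start, islands of at least 2 kb, equal covered length, regions with at least 50 counts, DESeq2 size factors, the replicate number as a block and leaving out each library. Interval and count code was tested on simulated data. The class of genes of at least 100 kb was added after the data were seen.

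Named genes were those without overlap in the same direction in both sources, the receptor region with the smallest p of each comparison and up to 3 more that passed without adjustment, the 3 most covered per mark in Ctrl, the 3 with the largest source difference in H3K27me3, those with no Polycomb island, and the members of each count given. Grin2a (neurosphere H3K27me3 region), Grin2d, Grin1, Grik4 and others described in full beyond these were chosen after their values were seen. The receptor genes and lists were chosen with earlier results of these data known. Islands on the mitochondrial chromosome (9 in all) were left out.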

Additional observations from a re-analysis of the deposited data

How the results depend on the processing

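Under each alternative but leaving out a library, mean coverage differences over the 35 receptor genes moved by less than the spread between libraries. The exception was equal covered length in the source comparison. There H3K27me3 went from 6.66 to -9.32 and H3K36me2 from 10.3 to 2.36 percentage points. At that setting the H2AK119ub1 source difference went from 8.11 to -0.513 and the hippocampal H2AK119ub1 genotype difference from 3.29 to -1.47, both within the spread between libraries but with the sign changed. Leaving out 1 library cannot, by construction, move a mean difference by more than that spread, so it was not judged by it. Leaving out 1 library at a time kept the source differences above 0, with ranges of 2.02 to 15.3 (H2AK119ub1), 5.16 to 9.85 (H3K27me3) and 6.67 to 12.3 (H3K36me2). The genotype differences changed sign within the same ranges, at -16.6 to 23.2 and -17.4 to 9.81 for H2AK119ub1 in hippocampus and neurospheres, -1.18 to 12.3 and -9.06 to 2.96 for H3K27me3, and -0.2 to 2.18 and -3.1 to 13.7 for H3K36me2.

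Counts of receptor genes without overlap, both directions together, were less stable. Between genotypes, the hippocampal H2AK119ub1 count of 1 became 0 with a 1 kb window, 2 with the principal start and 0 with islands of at least 2 kb. The neurosphere H2AK119ub1 count of 4 became 1, 2 and 2 under the same settings. The hippocampal H3K27me3 count of 5 became 2 with a 1 kb window, and the neurosphere one of 4 became 9 with the principal start. The hippocampal H3K36me2 count of 13 became 7 with islands of at least 2 kb and 5 at equal covered length. Without 1 library, which makes overlap less likely by construction, the counts were 2 to 10 and 5 to 13 for H2AK119ub1 in hippocampus and neurospheres, 6 to 11 and 6 to 11 for H3K27me3, and 15 to 18 and 15 to 21 for H3K36me2. Between sources, the H2AK119ub1 count of 2 became 0 with a 1 kb window, 1 with the principal start, 0 at equal covered length and 6 with Ctrl libraries alone, and was 2 to 3 without 1 library. The H3K27me3 count of 6 became 12 with Ctrl libraries alone, when the shares of all genes went from 1.32% and 6.13% to 2.91% and 15.2%, and was 6 to 8 without 1 library, and the H3K36me2 count of 9 became 18 with Ctrl libraries alone and 5 at equal covered length and was 9 to 12 without 1 library.

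No receptor region passed the FDR in edgeR or with DESeq2 size factors, at least 50 counts or the replicate block (0 in each of 6 comparisons). DESeq2 called 1 neurosphere H3K27me3 region, Grin2b. Without 1 library the calls were 0 to 4 for neurosphere H2AK119ub1 (4 without Ctrl replicate 1), 0 to 8 for neurosphere H3K27me3 and 0 to 2 for neurosphere H3K36me2 (8 and 2 without cKO replicate 1), and 0 in the hippocampus. In these fits the lone library is assumed to vary like the others. The deviations of same-numbered libraries correlated at 0.328, 0.265 and 0.0156 in the hippocampus and at -0.323, -0.123 and 0.315 in neurospheres for H2AK119ub1, H3K27me3 and H3K36me2. The labels do not say what a shared number means, and with 2 pairs it was not treated as a pairing. The block moved the count over all hippocampal H3K27me3 regions from 0 to 9, and a crossed pairing, chosen after seeing the data, called 0 regions for neurosphere H2AK119ub1 and H3K27me3. The few reads in islands of the hippocampal H2AK119ub1 libraries numbered 1 limit what could be called there.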
